A study of Mus musculus with 17 samples.

Results

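The RNAs described here are small non-coding RNAs made by RNA polymerase III, in sorted epithelial cells of the mouse small intestine. They are the 6 rows Rn7sk, Vaultrc5, Rny1, Rny3, Rpph1 and Rmrp, of 53278 rows in the expression table. The rows were picked by name, with it already known that Rn7sk and Vaultrc5 were higher at day of life 14 in pups of the IgA -/- dam. Values of these rows at day 14 are therefore given as a description with no test, and tests of them were kept to days 24 and 42. Of the 6 rows, 5 were above 0 and passed the filter on low values (2 or more libraries with a TPM of 1 or more), and Rmrp was listed at 0 in all 17 libraries.

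All pups were Igha -/+ on a C57BL/6 background, bred from a C57BL/6 and an IgA -/- parent and housed free of specific pathogens. They were nursed either by a B6 dam or by an IgA -/- dam (the IgA-null dam below), so the comparison is between dams, in pups of a single genotype. Maternal IgA cannot be told apart from anything else that differed between the dams. EpCAM+ CD45- Ter119- cells were sorted at days 14, 24 and 42 of life, with 3 libraries for each dam and day except 2 for the B6 dam at day 24. Whether pups came from 1 litter or several is not in the labels, and p-values therefore measure only the spread between these samples. The sample names carry dates that differ between the dams at days 14 and 24, where dam and date cannot be told apart, and that are the same for both dams at day 42. Under the IgA-null dam the dates are also the same at days 24 and 42, and they differ at day 14. Under the B6 dam they differ between all ages. Wherever the dates of 2 ages differ, age and date cannot be told apart.

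RNA polymerase III makes short, untranslated RNAs and often stops at a run of T. Rn7sk (7SK) holds the kinase P-TEFb in an inactive particle together with HEXIM proteins, LARP7 and MEPCE, and so limits release of paused RNA polymerase II. Vaultrc5 is the RNA of the vault, a large barrel-shaped particle built mainly of major vault protein. Rny1 and Rny3 are Y RNAs, which bind the Ro60 and La proteins. Rpph1 is the catalytic RNA of RNase P, which trims the 5′ end of tRNA precursors, and Rmrp is the related RNA of RNase MRP, which acts in ribosomal RNA processing.

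3 sequences are shown because they hold the parts through which these RNAs meet known protein partners. They are the DNA of the annotated transcripts in GENCODE M21 (GRCm38/mm10), 5′ to 3′. The first is the start of Rn7sk (chromosome 9, 78175303 to 78175633, minus strand, 331 bases), with each GATC in capitals. These repeats in the 5′ hairpin are where HEXIM binds. The others are whole Rny1 (chromosome 6, 47788069 to 47788180, minus strand, 112 bases) and Rny3 (chromosome 6, 47781624 to 47781725, plus strand, 102 bases), with the terminal T run, the kind of end that La binds, in capitals.
Rn7sk, bases 1 to 100: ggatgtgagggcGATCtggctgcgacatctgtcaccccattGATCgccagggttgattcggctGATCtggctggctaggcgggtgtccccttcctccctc
Rny1: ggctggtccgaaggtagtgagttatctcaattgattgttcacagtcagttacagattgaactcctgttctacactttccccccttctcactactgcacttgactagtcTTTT
Rny3: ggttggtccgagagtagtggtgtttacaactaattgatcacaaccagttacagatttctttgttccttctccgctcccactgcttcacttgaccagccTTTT

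The 3 GATC words of Rn7sk start at bases 13, 42 and 64. In the annotation, 0.323% of 139316 transcripts of at least 100 bases hold 3 or more GATC in their first 100 bases. Rny1, Rny3 and Vaultrc5 end in TTTT, as do 1.34% of all 141767 annotated transcripts, while Rn7sk, Rpph1 and Rmrp do not. Rny1 and Rny3 shared 81 identical bases in 112 aligned columns (72.3%). The cDNA kit primes on poly(A), and no member holds a run of more than 3 A in its annotated sequence, against 87.5% of annotated transcripts that do. The members are 102 to 331 bases long and those transcripts are of any length, so the comparison is not matched for length. What primed these RNAs was not tested.

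The values are TPM as the authors deposited them (a level per transcript length), which sum to the same total in each library. The ribosomal row Gm23935 took 40.2% to 61.9% of that total, and mitochondrial genes 13.7% to 34.6%. The remaining share was 24.7% to 30.9% under the IgA-null dam at day 14 and 18.8% to 19.7% under the B6 dam, and it was 10.3% to 15.2% under the IgA-null dam at day 24. Each value is therefore also given scaled, that is, divided by a size factor (the median ratio to the typical library over 16088 genes), which ranged from 0.480 to 1.84. Deposited values of most genes moved with this share. The median log2 difference over all 15066 genes tested, IgA-null minus B6 dam, was 0.33 at day 14 and -0.38 at day 24, and 0.53 for day 42 minus day 24 under the IgA-null dam, against -0.01, -0.03 and 0.01 after scaling. Whole reads recovered from the table numbered 8477226 to 18305345 per library, with 22289 to 107200 for Rn7sk, 308 to 1786 for Vaultrc5, 80 to 591 for Rny3, 9 to 74 for Rny1 and 3 to 33 for Rpph1, so counting error weighs most on the last pair.

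The sorted cells carried all 4 epithelial markers (Epcam, Vil1, Cdh1 and Krt8), with a summed level of 594 to 2107 TPM. The summed level of 5 leukocyte markers was 0.190 to 7.85 TPM, and those of fibroblast and muscle, endothelial and enteric neuron markers were at most 0.340, 0.186 and 1.34 TPM. Hemoglobin RNA, a mark of red blood cells, which the Ter119- gate should remove, set 1 library apart. Hbb-bs was at 24.26 TPM and Hba-a1 at 3.42 TPM in the second library of the IgA-null dam at day 24, and they were at most 1.16 and 0.358 TPM in the other 16 libraries. Both were singled out after their values were seen. In bulk cells, more RNA per cell and more cells of a type that holds the RNA cannot be told apart.

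Rn7sk had the highest TPM of the members in every library, followed by Vaultrc5, Rny3, Rny1 and Rpph1. Exceptions to that order were Rny3 above Vaultrc5 in libraries 1 and 3 of the IgA-null dam at day 42, and Rpph1 above Rny1 in the first library of that dam at day 24. Under the B6 dam at day 14 it stood at 7479, 7438 and 5465 TPM, and under the IgA-null dam at 32510, 27256 and 33659 TPM. The 2 sets of libraries did not overlap, and the ratio of the means was 4.58. Rn7sk alone took 0.946% to 1.13% of recovered reads in the 3 libraries of the IgA-null dam at day 14, and 0.137% to 0.299% in the other 14 libraries.

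Scaling narrowed this difference and kept the groups apart. Scaled Rn7sk was 6559, 6126 and 4605 under the B6 dam and 19739, 19337 and 18309 under the IgA-null dam, a ratio of 3.32. On the log2(TPM + 1) scale the difference was 2.21 (SE 0.26) as deposited and 1.75 (SE 0.23) scaled.

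At day 24 the Rn7sk level was 5365 and 4486 TPM under the B6 dam and 7253, 5288 and 4458 TPM under the IgA-null dam. These deposited values overlapped, and the log2 difference of 0.18 (SE 0.29) did not pass (adjusted p = 0.68, limma, Benjamini-Hochberg over all genes tested, as for every adjusted p here). Scaled values were 4940 and 6643 against 10047, 9723 and 9293, which did not overlap. The scaled log2 difference was 0.76 (SE 0.25), and it did not pass either (adjusted p = 0.37).

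At day 42 Rn7sk was at 3142, 5414 and 4517 TPM under the B6 dam and at 3690, 3333 and 4986 TPM under the IgA-null dam. The libraries overlapped on both scales. The log2 difference was -0.11 (SE 0.26) as deposited and -0.17 (SE 0.23) scaled, with adjusted p = 1.0 for both.

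Across ages, Rn7sk was lower at day 42 than at day 14 with both dams, where age and date cannot be told apart. As deposited, the log2 differences were -2.97 under the IgA-null dam and -0.66 under the B6 dam (a description, since day 14 chose the row). Scaled, these differences were -2.34 and -0.43, and the B6 dam's libraries of the 2 ages then overlapped, which they did not as deposited. From day 24 to day 42 under the IgA-null dam, scaled Rn7sk fell from 9688 ± 379 to 3859 ± 1044 (SD, n = 3 each), a log2 difference of -1.36 (SE 0.23, adjusted p = 0.014, limma). The deposited difference was -0.49 (SE 0.26, adjusted p = 0.12), so the call depends on the scale, and the scaled call was lost (adjusted p = 0.072, log2 difference -1.27) without the first library at day 42. Under the B6 dam the same step was -0.21 (SE 0.29) as deposited and -0.44 (SE 0.26) scaled, and neither passed (adjusted p = 1.0 and 0.75).

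**Figure D1:**
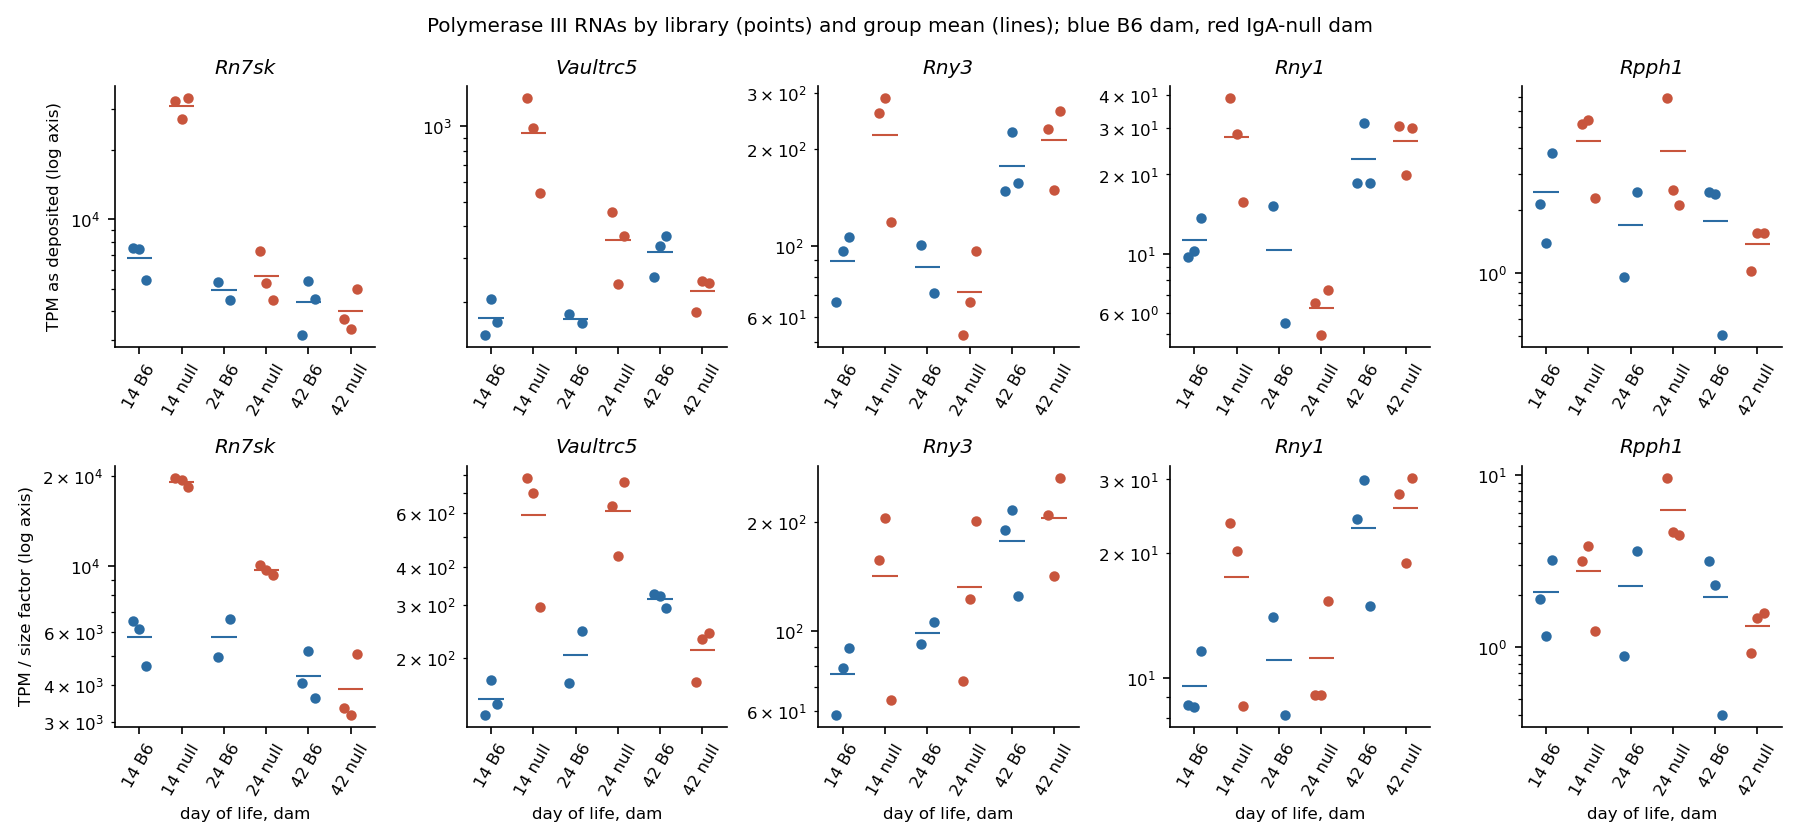
Level of each RNA per library (points) with group means (lines), as deposited (upper row, TPM) and scaled (lower row), on log axes, by day of life and dam. Rn7sk stands at 27256 to 33659 TPM in the IgA-null dam's day 14 libraries and at 7479 TPM or less in all others, while Rny1 and Rny3 have their lowest deposited group means with that dam at day 24.

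Vaultrc5 (chromosome 18, 36801866 to 36802008, plus strand, 143 bases) was the next in level. At day 14 it was at 148, 206 and 168 TPM under the B6 dam and at 1295, 986 and 544 TPM under the IgA-null dam. The groups did not overlap, the ratio of means was 5.42 (4.05 scaled), and the log2 difference was 2.36 (SE 0.31) as deposited and 1.90 (SE 0.32) scaled. The third library of the IgA-null dam was the lowest of its group for Vaultrc5 and the highest for deposited Rn7sk.

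Vaultrc5 under the IgA-null dam at day 24 was at 458, 236 and 365 TPM, above the 179 and 165 TPM of the B6 dam. Scaled, the values were 635, 434 and 760 against 165 and 245, again with no overlap. The log2 difference of 0.98 (SE 0.35) as deposited and 1.56 (SE 0.36) scaled did not pass over all genes (adjusted p = 0.093 and 0.21).

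At day 42 the order was the other way round. Vaultrc5 was at 252, 335 and 365 TPM under the B6 dam and at 183, 243 and 239 TPM under the IgA-null dam. The libraries did not overlap on either scale, yet the log2 difference of -0.51 (SE 0.31; scaled -0.57, SE 0.32) did not pass (adjusted p = 1.0 on both). A test of the change in the dam difference, day 24 minus day 42, which was added after the data were seen, gave 1.49 (SE 0.47, adjusted p = 0.24) as deposited and 2.13 (SE 0.48, adjusted p = 0.40) scaled.

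Between days 24 and 42 the Vaultrc5 difference had opposite signs under the 2 dams. From day 24 to day 42 under the B6 dam the log2 difference was 0.86 (SE 0.35) as deposited and 0.63 (SE 0.36) scaled, with no overlap of libraries and no call (adjusted p = 1.0 and 0.75). Under the IgA-null dam scaled Vaultrc5 fell from 610 ± 165 to 213 ± 41 (SD, n = 3 each), a log2 difference of -1.49 (SE 0.32, adjusted p = 0.032, limma). As deposited that difference was -0.63 (SE 0.31), which did not pass (adjusted p = 0.10). The scaled call was lost without any 1 of 5 of the 6 libraries, the exception being the second at day 24, with an adjusted p of 0.033 to 0.14 and a log2 difference of -1.72 to -1.32.

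The Y RNAs followed a course of their own. Rny3 at day 14 was at 66.7, 96.1 and 106 TPM under the B6 dam and at 258, 289 and 118 TPM under the IgA-null dam. Rny1, the less abundant, was at 9.81, 10.3 and 13.7 TPM against 38.9, 28.4 and 15.8 TPM. Both were higher in each deposited library of the IgA-null dam, and in both the third library lay closest to the B6 dam.

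After scaling, the day 14 libraries overlapped for both Y RNAs. Scaled Rny3 was 58.5, 79.1 and 89.6 against 157, 205 and 64.3, and scaled Rny1 was 8.60, 8.52 and 11.6 against 23.6, 20.2 and 8.58. The log2 difference went from 1.22 (SE 0.35) to 0.77 (SE 0.42) for Rny3 and from 1.15 (SE 0.35) to 0.71 (SE 0.35) for Rny1.

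Between dams the Y RNAs gave no call at the later ages. Rny3 at day 24 was at 100 and 71.3 TPM under the B6 dam and 52.5, 66.5 and 96.5 TPM under the IgA-null dam, and at day 42 at 148, 226 and 157 TPM against 231, 149 and 262 TPM. Rny1 at day 24 was at 15.2 and 5.50 TPM against 6.58, 4.96 and 7.36 TPM, and at day 42 at 18.6, 31.2 and 18.6 TPM against 30.4, 19.9 and 29.8 TPM. All 4 pairs of groups overlapped. The day 24 differences changed sign with the scale, from -0.27 (SE 0.39) to 0.30 (SE 0.47) for Rny3 and from -0.51 (SE 0.39) to 0.02 (SE 0.39) for Rny1, and the day 42 differences lay between 0.18 and 0.26 on both scales.

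Group means of both Y RNAs were higher at day 42 than at day 24 under each dam. Under the IgA-null dam Rny1 rose by 1.92 (SE 0.35, adjusted p = 0.0035, limma) and Rny3 by 1.57 (SE 0.35, adjusted p = 0.0050, limma) on the log2 scale as deposited. Scaled, the differences were 1.14 (SE 0.35, adjusted p = 0.086) and 0.71 (SE 0.42, adjusted p = 0.33), which did not pass. Under the B6 dam neither deposited nor scaled libraries of Rny1 or Rny3 overlapped between these ages, with log2 differences of 1.17 and 1.03 (SE 0.39 for both) as deposited and 0.98 (SE 0.39) and 0.80 (SE 0.47) scaled. None of these passed (adjusted p = 1.0 as deposited, 0.66 and 0.75 scaled).

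The RNase P RNA Rpph1 (chromosome 14, 50807449 to 50807767, minus strand, 319 bases) was near the filter. It was at 2.15, 1.40 and 3.78 TPM under the B6 dam and 5.20, 5.45 and 2.28 TPM under the IgA-null dam at day 14. At day 24 it was at 0.958 and 2.45 TPM against 6.93, 2.51 and 2.13 TPM, and at day 42 at 2.45, 2.38 and 0.502 TPM against 1.02, 1.55 and 1.56 TPM. The dams overlapped at each age as deposited, and scaled libraries stood apart at day 24 alone, where 9.60, 4.62 and 4.43 lay above 0.882 and 3.62.

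No Rpph1 difference passed. The scaled log2 difference between dams at day 24 was 1.22 (SE 0.50, adjusted p = 0.45), and under the IgA-null dam day 42 minus day 24 gave -0.91 (SE 0.40, adjusted p = 0.067) as deposited and -1.57 (SE 0.45, adjusted p = 0.070) scaled. The last pair of groups did not overlap on either scale. Rpph1 shares 233 bases with exons of the protein-coding gene Ccnb1ip1 on the same strand, so reads of these genes may not be separable and its values are uncertain.

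Rmrp (chromosome 4) was listed at 0 in every library. The annotation holds 2 overlapping gene models of that name on the minus strand, 43492783 to 43493063 and 43492788 to 43493058, with 271 shared bases, and exons of Ccdc107 on the other strand. Whether the 0 reflects the counting was not tested. For Rn7sk, Vaultrc5, Rny1 and Rny3 no exon of another gene overlaps, although 7SK and Y RNAs have pseudogenes elsewhere in the genome that could share reads.

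Against the background of all genes tested, at day 14 deposited libraries of the IgA-null dam lay wholly above those of the B6 dam in 4 of the 5 members (all but Rpph1), as in 45.1% of genes. After scaling 2 of 5 did, Rn7sk and Vaultrc5, as in 16% of genes. Nothing is read from these shares, since day 14 chose the rows.

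At day 24, 1 of 5 members (Vaultrc5) lay wholly above the B6 dam as deposited, as in 1.29% of genes, and 3 of 5 (Rn7sk, Vaultrc5 and Rpph1) did after scaling, as in 6.34% of genes. None of the 5 passed the test, against 0.0265% of genes called as deposited and 0% scaled. At an unadjusted p under 0.05, 1 member and 4659 of 15066 genes passed as deposited, and 3 members and 1519 genes passed scaled. limma-voom on the recovered reads used library totals and no size factor, here and below. It called 3475 of 13431 genes and 1 member, Vaultrc5 (log2 difference 0.99, adjusted p = 0.045, limma-voom). Mitochondrial genes took 22.2% to 22.7% of TPM under the B6 dam and 31.5% to 33.3% under the IgA-null dam at that age, and summed epithelial markers were 1476 to 1490 TPM and 594 to 1381 TPM; their part in these values was not tested.

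At day 42, Vaultrc5 alone of the 5 lay wholly on one side, below the B6 dam, as in 1.89% of genes as deposited and 3.66% scaled. No member and 0% of genes passed by limma on either scale, and limma-voom called 0. At an unadjusted p under 0.05 no member passed, against 174 genes as deposited and 242 scaled.

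From day 24 to 42 under the B6 dam, 3 of 5 members (Vaultrc5, Rny1 and Rny3) lay wholly higher, as in 7% of genes as deposited and 9.14% scaled. No member was called, by limma or by limma-voom, against 0.0199% of genes as deposited and 0.0265% scaled. The 3 members passed at an unadjusted p under 0.05 as deposited, as did 565 genes in all, and 1 (Rny1) passed scaled, with 1059 genes.

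Under the IgA-null dam 2 of 5 members were called on each scale, and they were different ones, against 49.3% of genes called as deposited and 2.58% scaled. Rny1 and Rny3 rose as deposited, where 48.5% of genes were called higher, a share close to theirs. Rn7sk and Vaultrc5 fell after scaling, where 1.14% of genes were called lower. As deposited, libraries of Rny1 and Rny3 lay wholly higher at day 42 (59.6% of genes did) and those of Rpph1 wholly lower (2.26%). Scaled, Rn7sk, Vaultrc5 and Rpph1 lay wholly lower (16.9% of genes) and Rny1 wholly higher (14.6%). limma-voom called 3 members, Rny1 and Rny3 higher and Rn7sk lower, among 7260 of 13431 genes called in all. Other measures moved with these ages under that dam. Mitochondrial genes took 31.5% to 33.3% of TPM at day 24 and 21.3% to 30.2% at day 42, and the 2 enteric neuron markers summed to 0.0991 to 0.502 TPM and 0.840 to 1.29 TPM. Hbb-bs was at 0.349, 24.26 and 0.442 TPM at day 24 and at 0.0704, 0 and 0 TPM at day 42. Without the library at 24.26 TPM, both scaled falls still passed (Rn7sk -1.36, adjusted p = 0.032, and Vaultrc5 -1.72, adjusted p = 0.033, limma). The remaining day 24 libraries still had more Hbb-bs than those at day 42, and no other single omission kept the Vaultrc5 call. The part of the hemoglobin, mitochondrial and neuron measures in the result was not tested.

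**Figure D2:**
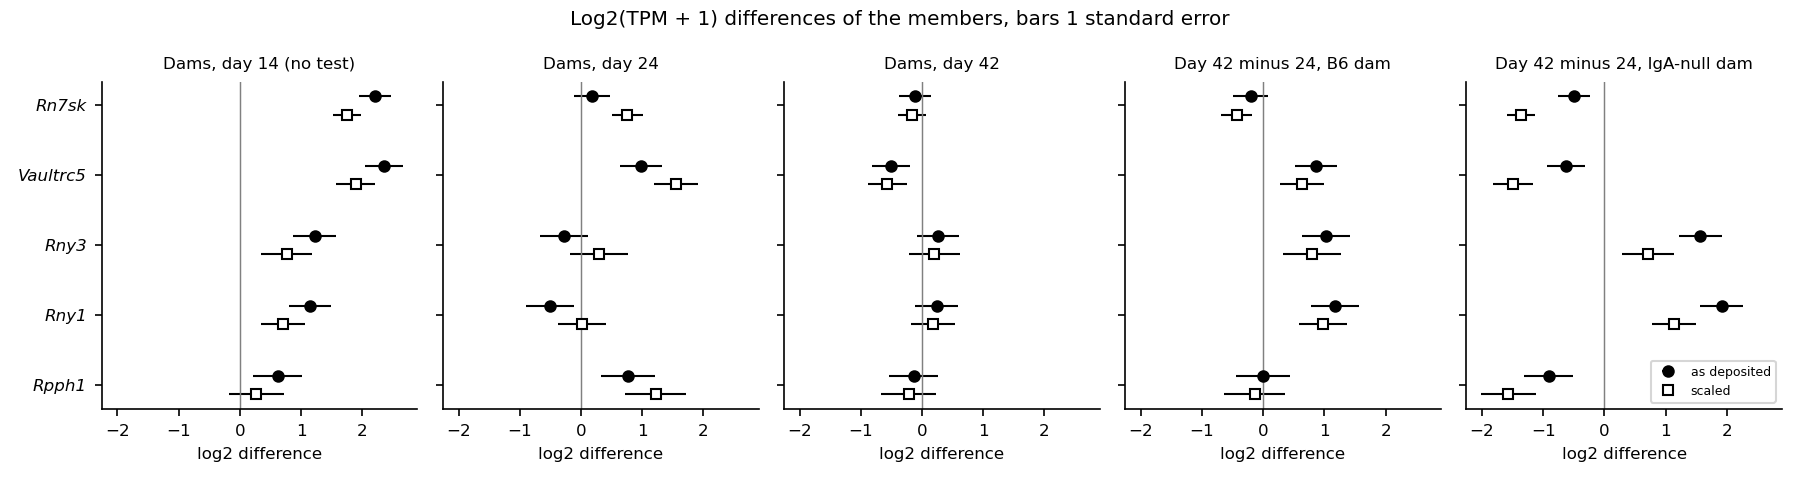
Log2 differences of the 5 members in 5 comparisons (x axis, log2(TPM + 1) scale) as deposited (filled circles) and scaled (open squares), with bars of 1 standard error. In the right panel scaling takes Rn7sk from -0.49 to -1.36 and Rny1 from 1.92 to 1.14.

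At day 14 too, other measures moved with the dam. The 5 leukocyte markers summed to 1.61 to 7.85 TPM under the B6 dam and 0.705 to 0.963 TPM under the IgA-null dam, where Cd3e was at 0. Summed epithelial markers were 1283 to 1383 TPM and 1607 to 2107 TPM. Hbb-bs was at 0.261 to 1.16 TPM and at 0 to 0.135 TPM, and Hba-a1 at 0.0846 to 0.329 TPM and at 0 in all 3 libraries of the IgA-null dam. The part of each in the day 14 values was not tested.

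Ratios between members within a library do not depend on the scaling. Rny3 over Rny1 kept within 6.59 to 13.4 over the 17 libraries, with a median of 7.94. The ratio of Vaultrc5 to Rny3 was 1.58 to 2.22 under the B6 dam at day 14, 1.79 and 2.32 at day 24 and 1.48 to 2.33 at day 42. Under the IgA-null dam it was 3.41 to 5.02 at day 14, 3.55 to 8.72 at day 24 and 0.795 to 1.63 at day 42. The B6 dam's libraries thus covered similar ranges at each age. Those of the IgA-null dam were above these ranges at days 14 and 24, and its libraries 1 and 3 were below them at day 42 (0.795 and 0.911). The day 14 part is a description, since day 14 chose Vaultrc5.

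Rn7sk over Vaultrc5 under the B6 dam was 32.6 to 50.6 at day 14, 27.1 and 30.0 at day 24 and 12.4 to 16.2 at day 42. Under the IgA-null dam it was 25.1, 27.6 and 61.9 at day 14, 12.2 to 22.4 at day 24 and 13.7 to 20.9 at day 42. The value of 61.9 is the third day 14 library, in which Rn7sk was as high as in the other 2 and the other members were lower. Rn7sk over Rny3 overlapped between the dams at each age. Under the B6 dam it was 51.4 to 112 at day 14, 53.6 to 62.9 at day 24 and 21.3 to 28.8 at day 42. Under the IgA-null dam it was 94.4 to 285, 46.2 to 138 and 16.0 to 22.3.

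**Figure D3:**
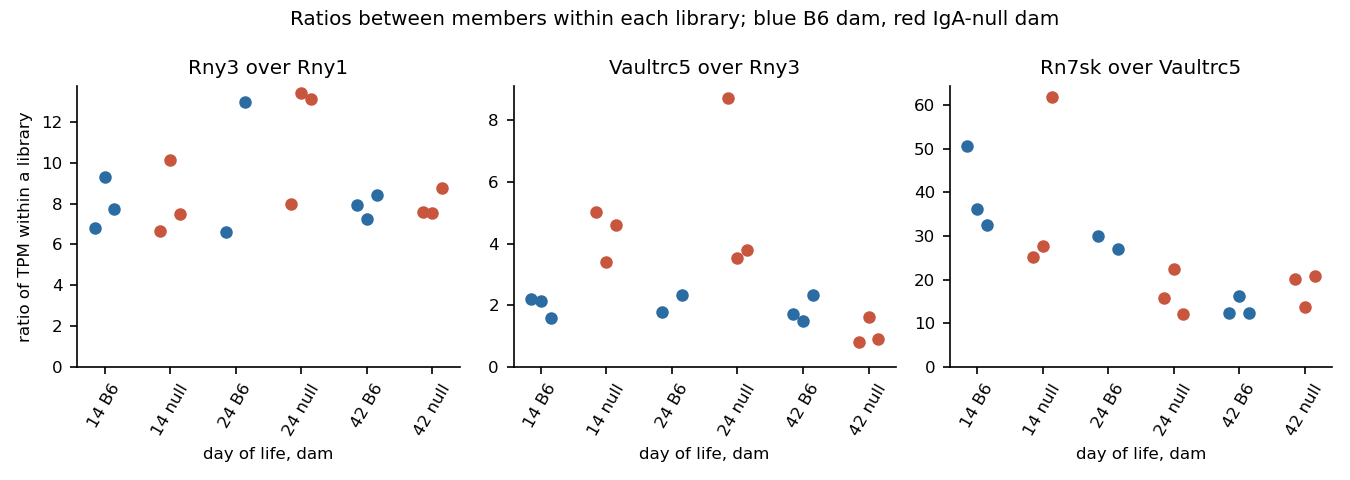
Ratios of TPM between members within each library (points), by day of life and dam, on linear axes from 0. Vaultrc5 over Rny3 is 3.41 or more in all 6 libraries of the IgA-null dam at days 14 and 24 and at most 2.33 in the other 11. Day 14 values are a description, since day 14 chose Rn7sk and Vaultrc5.

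Over the 17 libraries, as a description on log2(scaled TPM + 1), Rny1 and Rny3 were the most alike pair of members (Pearson's r = 0.88, and 0.94 as deposited). Rn7sk and Vaultrc5 gave 0.67 (0.77 as deposited), Vaultrc5 and Rpph1 0.62 (0.55), and Rn7sk and Rny1 -0.24 (0.27). The points share library, depth and group, and the sign of the last pair turned with the scale.

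Among all tested genes with a full name, those most alike to Rn7sk by the same measure were Cenpb (r = 0.91), which binds centromeric DNA, Romo1 (0.90), a small protein of the mitochondrial inner membrane, Hist1h4b (0.89), a histone H4 gene, Ppp1r18os (0.87) and Rnu3b2 (0.87), a copy of the U3 small nucleolar RNA. The genes most alike to Vaultrc5 were Snord118 (0.84), the U8 RNA of ribosomal RNA processing, Snord15a (0.84), a methylation guide RNA, Rnu1b6 (0.83), a copy of the U1 spliceosomal RNA, Ppnr (0.82) and Ccdc84 (0.81). Hist1h4b, Rnu3b2 and Rnu1b6 have near-identical copies, and their values are uncertain. The libraries correlated include those of day 14, which chose Rn7sk and Vaultrc5, so both rankings are a description. They are not independent of the day 14 differences given below.

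Most protein partners of these RNAs gave no call at day 14. Their values did not choose the rows, but all lists below were set with earlier results of these data known. The day 14 tests of the lists are therefore not independent of those results. Of 9 tested genes of the 7SK particle and P-TEFb none was called (8.68% of all genes were, as deposited, and 2.97% scaled), and their median log2 difference was 0.44 as deposited and 0.01 scaled, beside 0.33 and -0.01 over all genes. Larp7, which binds the 3′ end of 7SK, was at 17.2 ± 2.1 TPM under the B6 dam and 24.07 ± 5.5 TPM under the IgA-null dam (SD, n = 3 each; adjusted p = 0.24, limma). Mepce, which caps 7SK, was at 5.64 ± 0.49 and 9.41 ± 0.68 TPM (adjusted p = 0.056, limma), and scaled at 4.78 ± 0.42 and 5.80 ± 0.48 (adjusted p = 0.22, limma). Hexim1, the kinase inhibitor, and Cdk9, the kinase of P-TEFb, differed by 0.37 and 0.53 on the log2 scale as deposited and by -0.05 and 0.12 scaled, and Ccnt1, the cyclin, by 0.21 and -0.15.

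Proteins of the vault and of Y RNA particles gave the same count. None of 10 was called, with a median of 0.31 as deposited and -0.10 scaled. Mvp, the major vault protein, was at 11.3 ± 2.0 TPM under the B6 dam and 18.0 ± 2.3 TPM under the IgA-null dam (SD, n = 3 each; adjusted p = 0.16, limma), and its scaled log2 difference was 0.20 (SE 0.27). The scaled differences of the vault proteins Tep1 and Parp4 were -0.07 and -0.12, that of Trove2, the Ro60 protein, was -0.10, and that of Ssb, the La protein, was -0.08.

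Of the proteins of RNase P and RNase MRP, 1 of 9 was called as deposited and none scaled. It was Rpp38, with a log2 difference of 0.78 (SE 0.20, adjusted p = 0.026, limma) as deposited and 0.36 (SE 0.11, adjusted p = 0.085) scaled. The list's median was 0.33 and -0.05, and Pop1 and Rpp30, other subunits, differed by 0.06 and -0.05 scaled. Rpp25 did not pass the filter on low values.

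Polymerase III itself was measured through 13 subunits and 19 factors. Polr3gl, one of a pair of alternative subunits, was called as deposited, at 6.47 ± 0.82 TPM under the B6 dam and 16.6 ± 3.3 TPM under the IgA-null dam (SD, n = 3 each; log2 difference 1.22, SE 0.32, adjusted p = 0.029, limma), and not after scaling (0.78, SE 0.24, adjusted p = 0.089). Its alternative Polr3g differed by 0.35 as deposited and 0.01 scaled, and the largest subunit Polr3a by 0.31 and -0.06. No other subunit was called, and the median of the 13 was 0.48 as deposited and 0.07 scaled.

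None of the 19 factors was called (median 0.39 as deposited and 0.02 scaled). Scaled differences were 0.02 for Brf1 and 0.18 for Bdp1, parts of the initiation factor TFIIIB, -0.02 for Brf2, which serves promoters of the 7SK type, 0.24 for Snapc1 of the complex that recruits it, and -0.05 for Maf1, the repressor of polymerase III.

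Other polymerase III transcripts had a median near 0 at day 14. Of 184 rows (mostly copies of 5S ribosomal RNA), 36 were tested, 2 were called higher as deposited (n-R5s36 and n-R5s69, copies with uncertain reads) and none was called scaled. Their median was 0.01 as deposited and -0.08 scaled, beside 0.33 and -0.01 over all genes. The tested 5S copies had means of 0.286 to 6.76 TPM over all libraries. At such low levels the log2(TPM + 1) scale understates a change, so the list's median does not stand for polymerase III RNAs as a class. Rn7s1, the 7SL RNA of the signal recognition particle, which also has near-identical copies, was at 65.4 ± 15.1 TPM under the B6 dam and 127 ± 43 TPM under the IgA-null dam (SD, n = 3 each; adjusted p = 0.093, limma; scaled 0.60). Its log2 difference was 0.92 as deposited and 0.47 scaled. The log2 differences of the other copies were below 0. Rn7s2, the more abundant copy (mean 322 TPM over all libraries, against 89.6 TPM for Rn7s1), differed by -0.05 as deposited and -0.50 scaled, and Rn7s6 by -0.10 and -0.25, and neither was called.

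Small RNAs made by RNA polymerase II had the highest median of the lists. Of 77 tested small nucleolar, Cajal-body and spliceosomal RNAs, 20 were called higher as deposited and none lower, against 8.32% of all genes called higher, with a median of 0.86. After scaling 6 of the 20 were called, Snord118, Snord15a, Scarna17, Rnu3b2, Snora21 and Snora2b, against 1.81% of all genes, with a median of 0.40. Snord118 was at 15.6 ± 1.5 TPM under the B6 dam and 52.1 ± 7.1 TPM under the IgA-null dam (SD, n = 3 each), a log2 difference of 1.68 (SE 0.23, adjusted p = 0.0014, limma) as deposited and 1.22 (SE 0.25, adjusted p = 0.024) scaled. Snord15a was at 190 ± 14 and 637 ± 118 TPM (SD, n = 3 each), a difference of 1.73 (SE 0.24) and 1.27 (SE 0.27, adjusted p = 0.025, limma) scaled. Scarna17, a guide RNA of Cajal bodies, differed by 1.04 scaled (SE 0.23, adjusted p = 0.032). Most of these RNAs lie in introns of host genes, whose unspliced reads could be counted with them, and the 6 scaled calls became 0 to 3 when 1 day 14 library was left out.

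Nuclear long non-coding RNAs gave 3 calls of 7 as deposited and none scaled, with medians of 0.58 and 0.21. Neat1, the scaffold of paraspeckles, was at 6.62 ± 0.95 and 19.6 ± 0.6 TPM (SD, n = 3 each; log2 difference 1.44, adjusted p = 0.0086, limma; scaled 0.99, adjusted p = 0.084). Malat1 of nuclear speckles differed by 0.98 (adjusted p = 0.027; scaled 0.52, adjusted p = 0.21), and Airn was the remaining call.

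At days 24 and 42 no gene of any of these lists was called on either scale. At day 24 the medians of polymerase II small RNAs and of other polymerase III RNAs were 0.08 and 0.11 as deposited, beside -0.38 over all genes, and 0.58 and 0.30 scaled, beside -0.03. The other 6 lists had medians below that of all genes as deposited, from -0.71 to -0.46, and from -0.35 to 0.0002 scaled. The lowest on both scales was that of the RNase P and MRP proteins. At day 42 the list medians lay between 0.004 and 0.12 as deposited, beside 0.03.

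**Figure D4:**
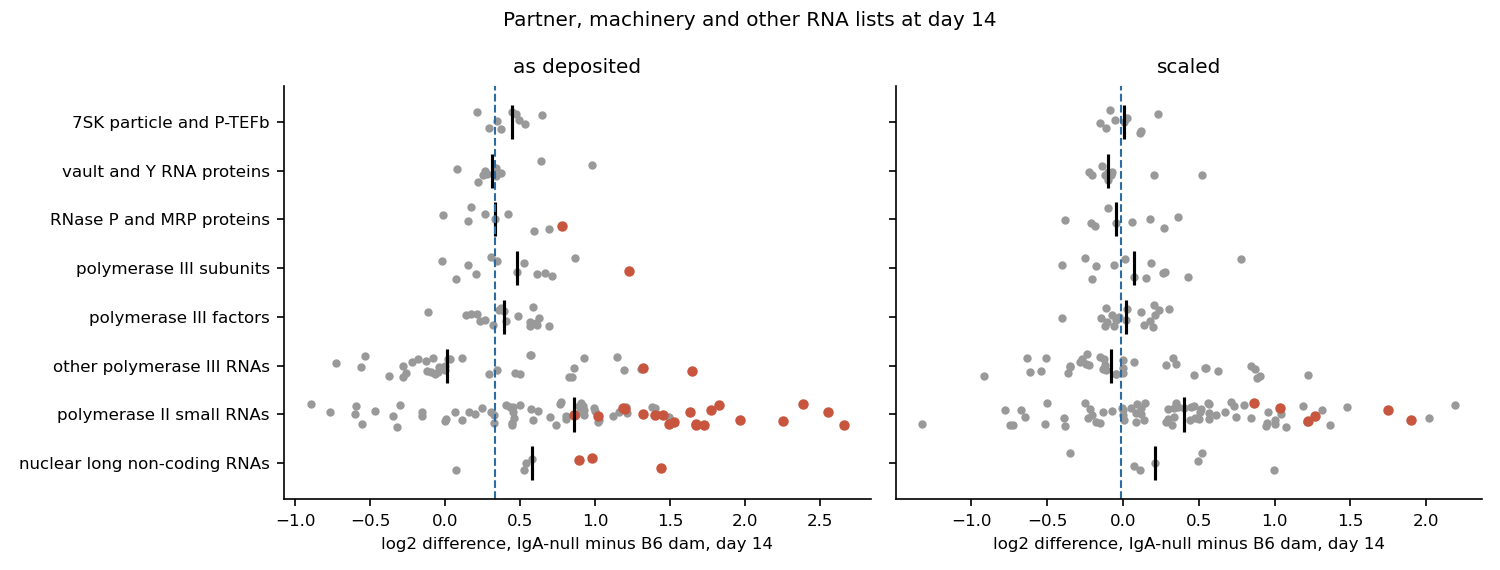
Log2 difference between dams at day 14 (IgA-null minus B6 dam, log2(TPM + 1) scale) for each tested gene of 8 lists, as deposited (left) and scaled (right); red points passed an adjusted p of 0.05, black lines are list medians and the dashed line is the median of all genes. Polymerase II small RNAs have a median of 0.86 as deposited and 0.40 scaled, with 20 and 6 calls.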

How the data were processed

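RNA of 17 libraries was measured after amplification with SMART-seq v4 and Nextera XT library preparation, per the labels' protocols. The authors deposited TPM values for 53278 gene symbols. Alignment to mm10 and the tools Bowtie2, Subread and DESeq2 are named per the submitters' processing notes, and the annotation is not given in the sources used here. Groups are the dam and day in the sample titles.

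TPM was multiplied by GENCODE M21 exon length (49612 symbols with 1 gene model). This gave whole reads for 93.6% of values above 0, within 0.01 reads or a relative tolerance of 1e-04, which exceeds 1 read for Rn7sk. No molecular identifiers are recorded, so PCR copies count as reads. The 15066 genes that reached a TPM of 1 in 2 or more libraries were tested on log2(TPM + 1) with limma 3.58.1 (R 4.3.3, intensity trend, 1 fit, Benjamini-Hochberg, threshold 0.05). The fit was checked on simulated data, in which all libraries had the same profile apart from the changes put in. That check does not cover the shifts in share between libraries seen here. A fold on the log2(TPM + 1) scale understates the change of low genes. Scaled values are TPM divided by median-of-ratios size factors. The members and lists were chosen with earlier results of these data known. Named genes are the members, their fixed partners, up to 4 genes per list with the smallest p at day 14, and the 5 most alike to Rn7sk and to Vaultrc5. Alternatives were another scaling (mitochondrial and 50 highest genes left out), pseudocounts, filters, robust moderation and a replicate block. Further ones were limma-voom on library totals without size factors, fits of only the groups compared and leaving out each library. The summed level of 1 marker list is not reported here.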

Additional observations from a re-analysis of the deposited data

Results flagged for a closer look

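The difference between dams in Vaultrc5 stood out because it lay in opposite directions at different ages. At day 14 every library of the IgA-null dam was above those of the B6 dam and at day 42 every one was below, and the deposited log2 difference at day 14 minus that at day 42 was 2.87. This difference was not tested, since day 14 values chose the row. Between day 24, where the IgA-null dam's libraries were also all higher, and day 42 the change in the dam difference was 1.49 and did not pass (adjusted p = 0.24, limma). The day 42 difference alone was -0.51 (SE 0.31) and did not pass either. As deposited, libraries of the IgA-null dam lay wholly higher at day 14 in 45.1% of genes and wholly lower at day 42 in 1.89%.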

How the results depend on the processing

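Some directions turned with the scale. At day 24 Rny1 turned to 0.020 and Rny3 to 0.30 scaled (0.050 and 0.33 with mitochondrial and the 50 highest genes left out), and Rpph1 from day 24 to 42 under the B6 dam to -0.14 and -0.093 (-0.071 with pseudocount 0.1, -0.14 by limma-voom). The Rn7sk difference at day 14 was 1.75 scaled and 1.74 without those genes. limma-voom called 1 member at day 24. List genes called at day 14 numbered 27, and 6 scaled, 4 without those genes, 17 and 43 with pseudocounts 0.1 and 5, 15 with no filter, 9 by limma-voom and 48 with only the groups compared. Of the 27, 20 were polymerase II small RNAs, as were all 6 scaled. The calls over all genes moved too, with 1307 of 15066 as deposited, 447 scaled and 710 of 13431 by limma-voom.

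Leaving out each library in turn gave 0 to 1 members called at day 24 as deposited (the 1 is Rny1, -1.16, adjusted p = 0.046, without the second B6 library), 0 to 2 for scaled day 42 against 24 under the IgA-null dam, and 10 to 23 list genes called as deposited and 0 to 3 scaled. Uncalled differences that changed sign ranged at day 24 from -0.015 to 0.34 (Rn7sk) and -1.16 to 0.15 (Rny1) as deposited, and scaled from -0.34 to 0.38 (Rny1) and -0.063 to 0.66 (Rny3). At day 42 they ranged from -0.33 to 0.066 (Rn7sk) and -0.53 to 0.067 (Rpph1), and scaled from -0.68 to 0.11 (Rpph1), -0.091 to 0.39 (Rny1) and -0.029 to 0.45 (Rny3). For day 42 against 24 under the B6 dam they ranged from -0.38 to 0.012 (Rn7sk) and -0.41 to 0.41 (Rpph1; scaled -0.79 to 0.51). Omitting a B6 day 24 library leaves 1, which is assumed to vary like the other groups. The causes were not tested.

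Same-numbered libraries deviated with a correlation of -0.65 to 0.17, so the numbers do not pair them. With the replicate block the counts were 0 members called between dams at days 24 and 42 and across ages under the B6 dam, 2 under the IgA-null dam and 25 list genes. Of all alternatives for the comparisons' counts and day 14 differences, those above included, 160 stayed within 1.5 times or 1 SD and 26 moved further. For single members and genes and the count of polymerase II small RNAs, 387 stayed the same, 27 changed sign, 9 lost and 6 gained a call, and 13, all of that count, moved by over 1.5 times. Few reads limit Rny1 and Rpph1.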
